A study of Mus musculus with 16 samples.

Results

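Pf4, Ppbp, Vwf, Treml1, P2rx1, Rgs18, Bin2 and Tubb1 are 8 genes of platelets and of their precursors, the megakaryocytes, and they encode granule contents and parts of the signalling and shape machinery of these cells. They were followed in cells sorted from mouse embryos. Chosen with earlier results of these data known, they were taken by name, as every array probe whose gene name is one of the 8. Each had 1 such probe, so that 8 genes of the 24578 tested are described, each of them measured above background in at least 4 of the 8 groups. VE-cadherin-positive cells had been sorted by flow cytometry at E11.5, in mid-gestation, and put on 16 Agilent 1-colour expression arrays, 2 for each of 8 groups. The groups were Tie-2-Etv2 and control cells of 4 populations, namely yolk sac CD45+ cells, yolk sac CD45- cells, embryo proper CD45+ cells and embryo proper CD45- cells. In Tie-2-Etv2 animals a transgene for the ETS transcription factor Etv2 was turned on by a Cre recombinase transgene under Tie-2, the gene of an endothelial receptor. Tie-2-driven Cre marks endothelial cells and the blood cells that come from them, so the transgene need not be confined to endothelium. All animals were of a mixed strain background (B6/CBA and others), and the alleles that the control animals carried are not given in the sources used here. The Tie-2-Etv2 samples of embryo CD45- cells are titled Tie-2 without Etv2, and were grouped by their genotype label. Whether both samples of a group stem from different embryos is not stated, so the p-values reflect the spread between these samples and nothing wider, and that spread may be technical.

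Megakaryocytes arise in the yolk sac and later in the fetal liver, and shed platelets, which carry ready-made cargo in granules. Pf4 and Ppbp are chemokines stored in platelet alpha granules, von Willebrand factor (Vwf) is an adhesive protein of alpha granules that endothelial cells also make and store, and Treml1 is a receptor of the alpha granule membrane that reaches the surface on activation. P2rx1 is an ATP-gated cation channel, Rgs18 shortens signals of G protein-coupled receptors, Bin2 is a membrane-binding protein of blood cells, and Tubb1 is the beta tubulin of the platelet's marginal band. Several are not restricted to the lineage: Pf4 is also transcribed in tissue macrophages, Rgs18 and Bin2 in other blood cells, and Vwf in endothelium.

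A level is the log2 signal minus the array's own 75th percentile of log2 signals, and differences are on the log2 scale, Tie-2-Etv2 minus control unless another contrast is named, with the standard error (SE) of 1 limma fit over all 16 arrays. A gene was called changed at a Benjamini-Hochberg adjusted p under 0.05 over all 24578 genes. Where no array of a group was well above background, the fold is given as at least a value. For it, each such array is set no lower than its lowest signal that passed the background test. Such a bound applies to the scanner's processed signal alone, and another background correction can give a smaller fold. The summed level of a gene list on an array is the log2 of its summed unlogged signals, in which the brightest genes weigh most. Between 50.6% and 59.9% of an array's probes passed the scanner's test against background, and 0 were saturated, and 2 arrays per group limit the precision. Yolk sac and embryo arrays lay on different slides, and CD45+ and CD45- arrays in different columns of a slide. Tissue and slide, and gate and slide column, therefore cannot be told apart, whereas both genotypes of a population lay in the same column of the same slide. Etv2, the gene of the transgene, separated the genotypes without overlap in each population, for example at 3.90 and 3.26 with the transgene, against -2.60 and -2.95 in control cells, in the yolk sac CD45- gate. Ptprc, which encodes CD45, was at 2.06 to 3.56 on the CD45+ arrays and at -5.55 to -2.92 on the CD45- arrays. In CD45- cells it was well above background in 1 of the 4 groups, Tie-2-Etv2 yolk sac, at -2.92 and -3.43. Cdh5, which encodes VE-cadherin, was lower on CD45+ arrays, at 1.65 to 3.13 in Tie-2-Etv2 cells and -0.66 to 0.33 in control cells, than on CD45- arrays, at 4.72 to 5.99. In such bulk samples fewer cells of a type and less RNA per cell cannot be told apart.

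The probes were 60 bases long, and their positions on mm9, as the files give them, were chr5:91202275-91202334 for Pf4 (plus strand), chr5:91198970-91199029 for Ppbp (plus strand), chr6:125636551-125636610 for Vwf (plus strand) and chr17:48506365-48506424 for Treml1 (plus strand). The probes of the other genes lay at chr11:72828564-72828623 for P2rx1 (plus strand), chr1:146600137-146600196 for Rgs18 (minus strand), chr15:100475278-100475337 for Bin2 (minus strand) and chr2:174283277-174283336 for Tubb1 (plus strand). Which exon or UTR a probe lies in is not stated in the files.

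The 250 bases before the start of 4 of the genes are shown, each for a reason of its own. Pf4 and Ppbp are neighbours, with probes 3246 bases apart on chromosome 5 of mm9, yet Pf4 spans a wide range over the groups and Ppbp a narrow one. Treml1 was high wherever the transgene was present, and P2rx1 carried the most motif matches. The sequences are RefSeq's, on GRCm38.p6, whose table held 5 of the 8 genes (Pf4, Ppbp, P2rx1, Tubb1 and Treml1). Capitals mark matches on either strand to any of 4 motif sets, with no overlap between sets in these windows. The set for GATA factors was AGATAA together with the variant TGATAA. For ETS factors, the family of Etv2, it was AGGAAG together with the variant CCGGAA. For RUNX factors it was TGTGGT alone. The set for NF-E2 and AP-1 was TGANTCA alone.
Pf4 (chr5:90772185-90772434, + strand): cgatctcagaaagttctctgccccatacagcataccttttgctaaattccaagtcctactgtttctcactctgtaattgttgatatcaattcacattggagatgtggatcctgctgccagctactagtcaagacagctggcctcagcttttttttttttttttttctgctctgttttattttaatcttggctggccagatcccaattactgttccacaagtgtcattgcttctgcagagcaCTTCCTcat
Ppbp (chr5:90768268-90768517, + strand): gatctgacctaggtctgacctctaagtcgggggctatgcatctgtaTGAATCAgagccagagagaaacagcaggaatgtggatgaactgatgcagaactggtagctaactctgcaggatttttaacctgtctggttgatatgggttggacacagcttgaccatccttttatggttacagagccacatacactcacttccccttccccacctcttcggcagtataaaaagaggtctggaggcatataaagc
P2rx1 (chr11:72998895-72999144, + strand): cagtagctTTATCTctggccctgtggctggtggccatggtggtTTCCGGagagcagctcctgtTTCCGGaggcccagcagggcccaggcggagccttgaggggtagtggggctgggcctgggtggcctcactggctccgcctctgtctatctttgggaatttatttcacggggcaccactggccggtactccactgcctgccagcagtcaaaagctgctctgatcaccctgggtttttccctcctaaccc
Treml1 (chr17:48359666-48359915, + strand): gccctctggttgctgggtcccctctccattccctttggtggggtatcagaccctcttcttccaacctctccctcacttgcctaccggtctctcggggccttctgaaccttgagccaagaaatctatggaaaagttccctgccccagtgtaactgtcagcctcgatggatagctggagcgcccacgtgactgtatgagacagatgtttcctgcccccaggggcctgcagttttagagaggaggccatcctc

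An ETS match lay 9 bases before the start of Pf4, and 2 lay 207 and 187 bases before that of P2rx1. P2rx1 also held the only GATA match of the 5 promoters, at 242 bases, and Ppbp the only NF-E2 and AP-1 match, at 204 bases. The Tubb1 promoter, not shown, held an ETS match at 106 bases. The Treml1 window held no match to any of the 4 motif sets, and no RUNX match was found in the 5 windows. In all, 3 of 5 windows held an ETS match, against 38.2% of 32851 promoters, 1 of 5 a GATA match, against 16.6%, and 1 of 5 an NF-E2 and AP-1 match, against 6.75%. RUNX matches occur in 14.0% of these promoters. A match describes letters, not a bound site.

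The first question was what the Etv2 transgene changed in each sorted population. Treml1, P2rx1 and Rgs18 rose in all 4 populations, although their calls in embryo CD45+ cells depended on single arrays, and Bin2 rose in all but embryo CD45+ cells. Pf4 fell by 2.13 on the log2 scale in yolk sac CD45+ cells and rose in both CD45- populations, by 7.50 in the yolk sac and 4.98 in the embryo. Tubb1 rose and Vwf fell in yolk sac CD45- cells, and neither passed the test in the other 3 populations, and Ppbp fell in yolk sac CD45+ cells. These calls of Tubb1, Vwf and Ppbp also depended on single arrays. The counts that follow are of genes chosen with earlier results of these data known, so they do not test an independent set. Yolk sac CD45+ cells had 4 members higher and 2 lower, where 18.1% and 14.4% of all genes tested were higher and lower. In yolk sac CD45- cells 6 were higher and 1 lower, against 26.1% and 15.8% of all genes. Embryo CD45+ cells had 3 of 8 higher, against 2.29% of all genes (564 genes, and 263 without Tie-2-Etv2 replicate 2), and embryo CD45- cells 5 of 8 higher, against 1.25%. The median difference over the members was 1.14, 6.92, 0.64 and 4.55 in yolk sac CD45+, yolk sac CD45-, embryo CD45+ and embryo CD45- cells, and over all genes it lay between -0.026 and 0.18. The split of all genes depended on the scaling in yolk sac CD45- cells: 6405 were higher and 3882 lower as scaled here, and 4066 were higher and 5618 lower when arrays were scaled on the probes detected on all arrays. In yolk sac CD45+ cells the 4457 higher and 3543 lower became 4018 and 4050. That scaling moved the median of all genes in yolk sac CD45- cells to -0.14, from 0.18, and the members' calls were the same in it, with Tubb1 at 1.64 and Vwf at -1.79.

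**Figure D1:**
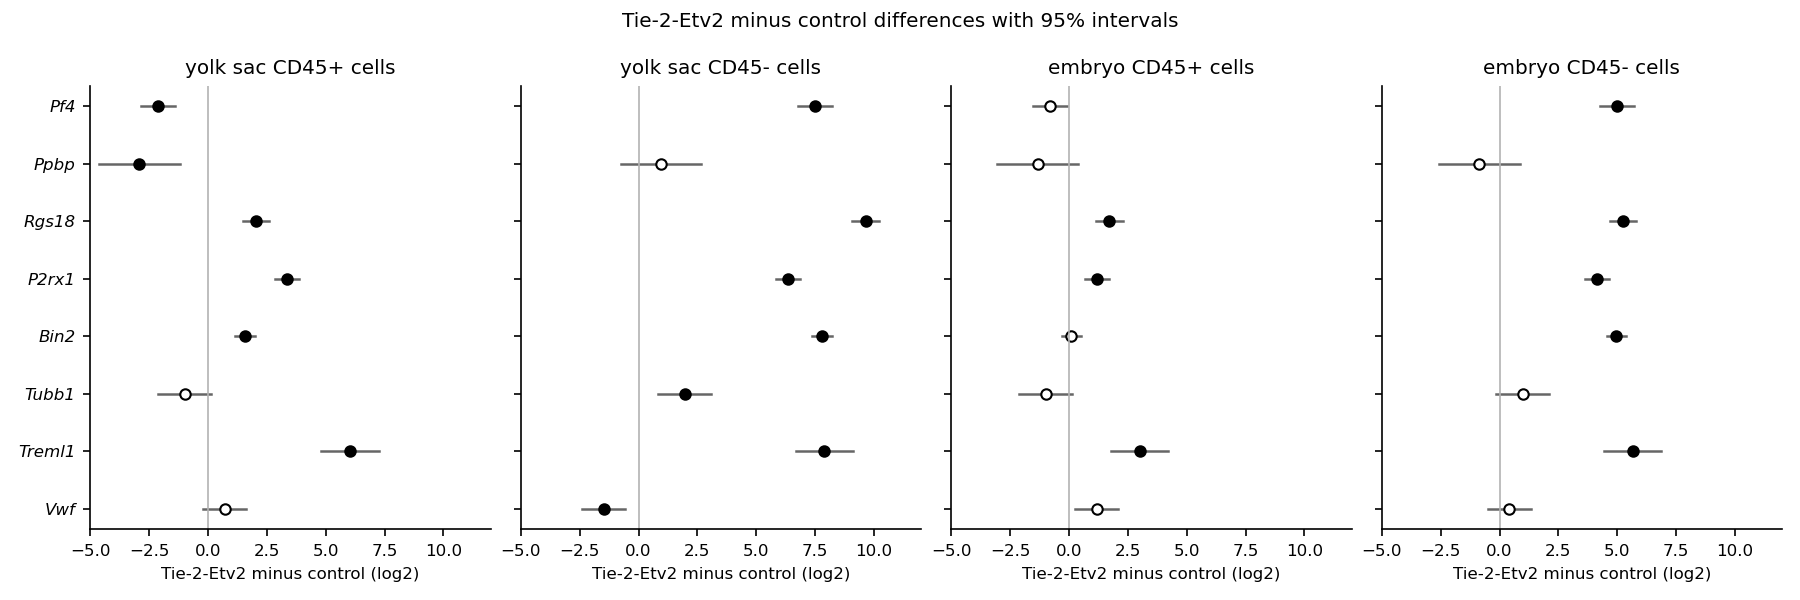
Tie-2-Etv2 minus control differences (log2, x axis) of the 8 genes in the 4 sorted populations. Points are differences of 2 against 2 arrays, bars their 95% intervals, and filled points passed an adjusted p of 0.05. Treml1 lies to the right of 0 in every panel, at 3.00 to 7.90, while Pf4 lies at -2.13 in yolk sac CD45+ cells and 7.50 in yolk sac CD45- cells.

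Among the granule genes, Treml1 separated the genotypes most plainly. Its level was 5.71 and 4.57 in Tie-2-Etv2 yolk sac CD45+ cells, against -1.33 and -0.45 in control cells. The Tie-2-Etv2 yolk sac CD45- arrays read 7.75 and 6.79, and the control arrays -0.78 and -0.48. In the embryo the CD45+ cells had 2.93 and 2.38 with the transgene and -0.55 and -0.15 without it, and the CD45- cells 5.61 and 4.71 against 0.12 and -1.11. All 8 Tie-2-Etv2 arrays thus lay above all 8 control arrays, with no overlap, and the control groups did not differ from one another beyond their spread in either gate or tissue. The differences were 6.03 ± 0.55 (SE, 2 arrays a group, limma adjusted p = 3.77e-05) and 7.90 ± 0.55 (adjusted p = 4.52e-06) in yolk sac CD45+ and CD45- cells. Those in embryo CD45+ and CD45- cells were 3.00 ± 0.55 (adjusted p = 0.0153) and 5.65 ± 0.55 (adjusted p = 0.000285), 8.01-fold and 50.3-fold. The embryo CD45+ call was lost without either Tie-2-Etv2 array (adjusted p = 0.0771 without replicate 1, 0.0671 without replicate 2), without control replicate 1 (0.0862) and on the 4 arrays alone (0.0810), with differences of 2.73 to 3.28.

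Pf4 followed another pattern. In yolk sac CD45+ cells it stood at 7.27 and 6.64 with the transgene, against 9.34 and 8.84 in control cells, a fall of 4.38-fold (difference -2.13 ± 0.32, adjusted p = 0.000668). Yolk sac CD45- cells had 9.17 and 8.95 in Tie-2-Etv2 samples, against 1.32 and 1.79 in control samples, 182-fold higher (7.50 ± 0.32, adjusted p = 2.19e-07). The Tie-2-Etv2 CD45- cells of the yolk sac thereby reached the level of control CD45+ cells, from which they differed by 0.028, less than the spread. Embryo CD45+ cells had 7.60 and 7.32 with the transgene, against 8.46 and 8.10 in controls, a difference of -0.82 ± 0.32 that did not pass (adjusted p = 0.236) although the arrays did not overlap. In embryo CD45- cells the levels were 7.98 and 7.36 in Tie-2-Etv2 samples, against 3.00 and 2.39 in control samples, 31.5-fold higher (4.98 ± 0.32, adjusted p = 1.62e-05). The arrays of 6 of the 8 groups therefore lay within 6.64 to 9.34, and the CD45- control cells of both tissues stood alone below, at 1.32 to 3.00.

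Macrophage transcripts moved with Pf4 in one of these populations. In yolk sac CD45+ cells 15 of 18 other macrophage markers fell and 0 rose, and their summed level was 7.86 and 8.00 in Tie-2-Etv2 cells, against 11.37 and 10.95 in control cells. F13a1, a coagulation factor subunit that both platelets and macrophages make, fell by 3.15 there (SE 0.29, adjusted p = 3.88e-05). C1qc, a complement subunit of macrophages, was at 3.23 and 3.38 in the Tie-2-Etv2 cells and at 7.89 and 7.21 in the control cells. The part of these transcripts in the Pf4 fall was not tested. The rises of Pf4 in CD45- cells came with rises of F13a1, by 8.34 in the yolk sac and 4.86 in the embryo. C1qc was not well above background on any Tie-2-Etv2 CD45- array, but was in control embryo CD45- cells, at -4.08 and -3.97. Csf1r, another macrophage marker, was well above background on every CD45- array. It was at 2.06 and 2.21 in Tie-2-Etv2 and 2.73 and 2.53 in control yolk sac CD45- cells. In embryo CD45- cells it was at 1.39 and 1.14, against 1.97 and 1.19 in control cells. The part of macrophage transcripts in these rises of Pf4 was not tested. The macrophage list rose in 5 and fell in 3 of 18 genes in yolk sac CD45- cells (summed level 5.85 and 5.74, against 5.34 and 5.13 in control cells), close to the 26.1% and 15.8% of all genes there, and rose in 2 and fell in 1 in embryo CD45- cells (4.15 and 3.94, against 4.72 and 4.13). In embryo CD45+ cells 1 of 18 rose and 2 fell, with summed levels of 10.53 and 10.01, against 11.12 and 11.005 in control cells.

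**Figure D2:**
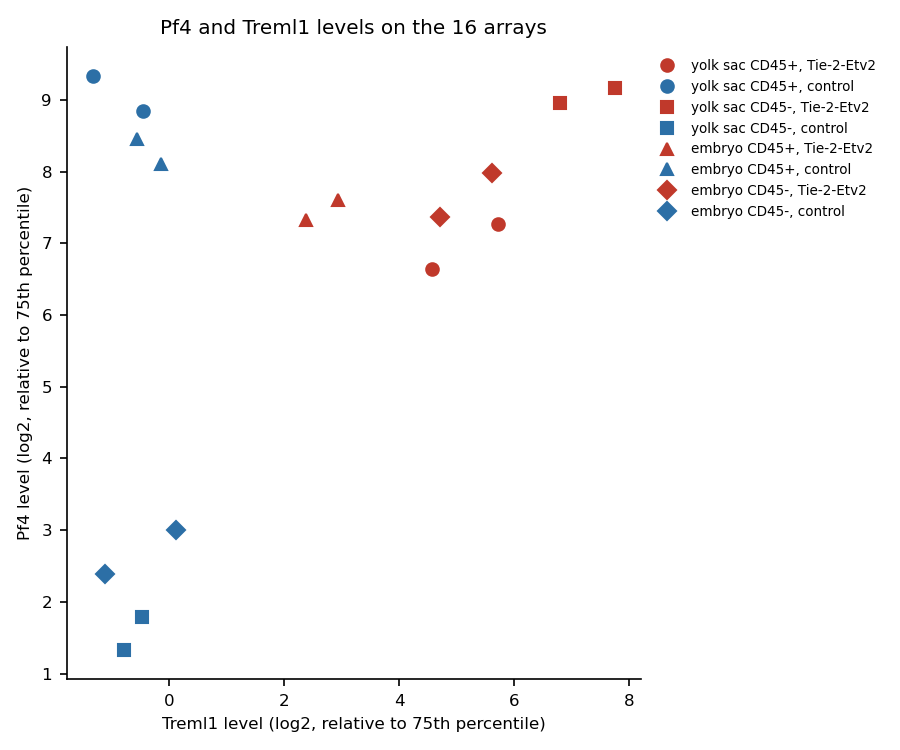
Level of Pf4 (y axis) against that of Treml1 (x axis), both log2 relative to the array's 75th percentile, 1 point per array. Red points are Tie-2-Etv2 and blue points control arrays, and the shapes mark the 4 populations. Control CD45+ arrays have Pf4 at 8.10 to 9.34 with Treml1 at -1.33 to -0.15, control CD45- arrays are low for both, and Tie-2-Etv2 arrays have both genes high.

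Ppbp, the neighbour of Pf4, was dim and varied between the arrays of a group. Tie-2-Etv2 yolk sac CD45+ cells had -1.78 and -2.37, against 1.31 and 0.38 in control cells, a fall of 2.92 on the log2 scale (SE 0.77, adjusted p = 0.0150) with no overlap. The call was lost without Tie-2-Etv2 replicate 2 (adjusted p = 0.0850, difference -2.63) and without control replicate 1 (adjusted p = 0.0932, difference -2.45). The yolk sac CD45- arrays read 0.38 and -0.79 with the transgene and -2.26 and -0.064 without it, which overlap, at a difference of 0.96 ± 0.77 (adjusted p = 0.355). Without control replicate 1 that difference was -0.14. The embryo CD45+ arrays did not overlap, at -0.97 and -1.65 with the transgene against 0.072 and -0.025 in controls (difference -1.33 ± 0.77, adjusted p = 0.459). Those of embryo CD45- cells overlapped, at -0.86 and -2.65 against -0.40 and -1.37 (difference -0.86 ± 0.77, adjusted p = 0.989, and 0.029 without Tie-2-Etv2 replicate 2). The rise of Pf4 in CD45- cells was thus not seen in Ppbp, where 95% intervals of the difference ran from -0.76 to 2.67 in the yolk sac and from -2.58 to 0.85 in the embryo.

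Vwf, the granule protein shared with endothelium, split by gate. It stood at 2.62 and 1.12 in Tie-2-Etv2 yolk sac CD45+ cells, against 0.96 and 1.35 in control cells, with overlapping arrays and a difference of 0.71 ± 0.41 (adjusted p = 0.218). Without Tie-2-Etv2 replicate 2 that difference was 1.46 and passed (adjusted p = 0.00934), and without replicate 1 it was -0.039. In yolk sac CD45- cells it fell to 6.77 and 6.00 with the transgene, against 7.87 and 7.84 in controls (difference -1.47 ± 0.41, adjusted p = 0.0154), 2.77-fold lower. This call was lost without Tie-2-Etv2 replicate 2 (adjusted p = 0.108, difference -1.09), without control replicate 1 (0.0659) or 2 (0.0638), and with the yolk sac slide fitted alone (0.0638). Embryo CD45+ cells had 0.97 and 0.67 against -0.39 and -0.32 in controls, a difference of 1.17 ± 0.41 that did not pass (adjusted p = 0.175) but did with the embryo slide fitted alone (0.0472). The embryo CD45- arrays read 6.26 and 6.35 against 5.80 and 6.00 (0.41 ± 0.41, adjusted p = 0.999). Another probe that the files describe as Vwf but name by a transcript differed by 1.36, -0.58, 1.15 and 0.48 (SE 0.45) in yolk sac CD45+, yolk sac CD45-, embryo CD45+ and embryo CD45- cells. On that probe the fall in yolk sac CD45- cells was thus smaller, at little more than its SE.

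The endothelial marker list is given beside Vwf, which passed the test in yolk sac CD45- cells and not in the other 3 populations. In yolk sac CD45- cells 14 of 19 fell and 0 rose, with summed levels of 9.61 and 9.78 in Tie-2-Etv2 cells, against 10.88 and 10.70 in control cells. In yolk sac CD45+ cells 14 of 19 rose and 1 fell, with summed levels of 8.51 and 8.50 against 5.95 and 5.92. In embryo CD45+ cells 8 rose and 0 fell (7.39 and 7.78, against 6.20 and 5.83 in control cells), and in embryo CD45- cells 0 of 19 passed the limma test (10.30 and 10.40, against 10.53 and 10.47). The part of these markers in the Vwf values was not tested.

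**Figure D3:**
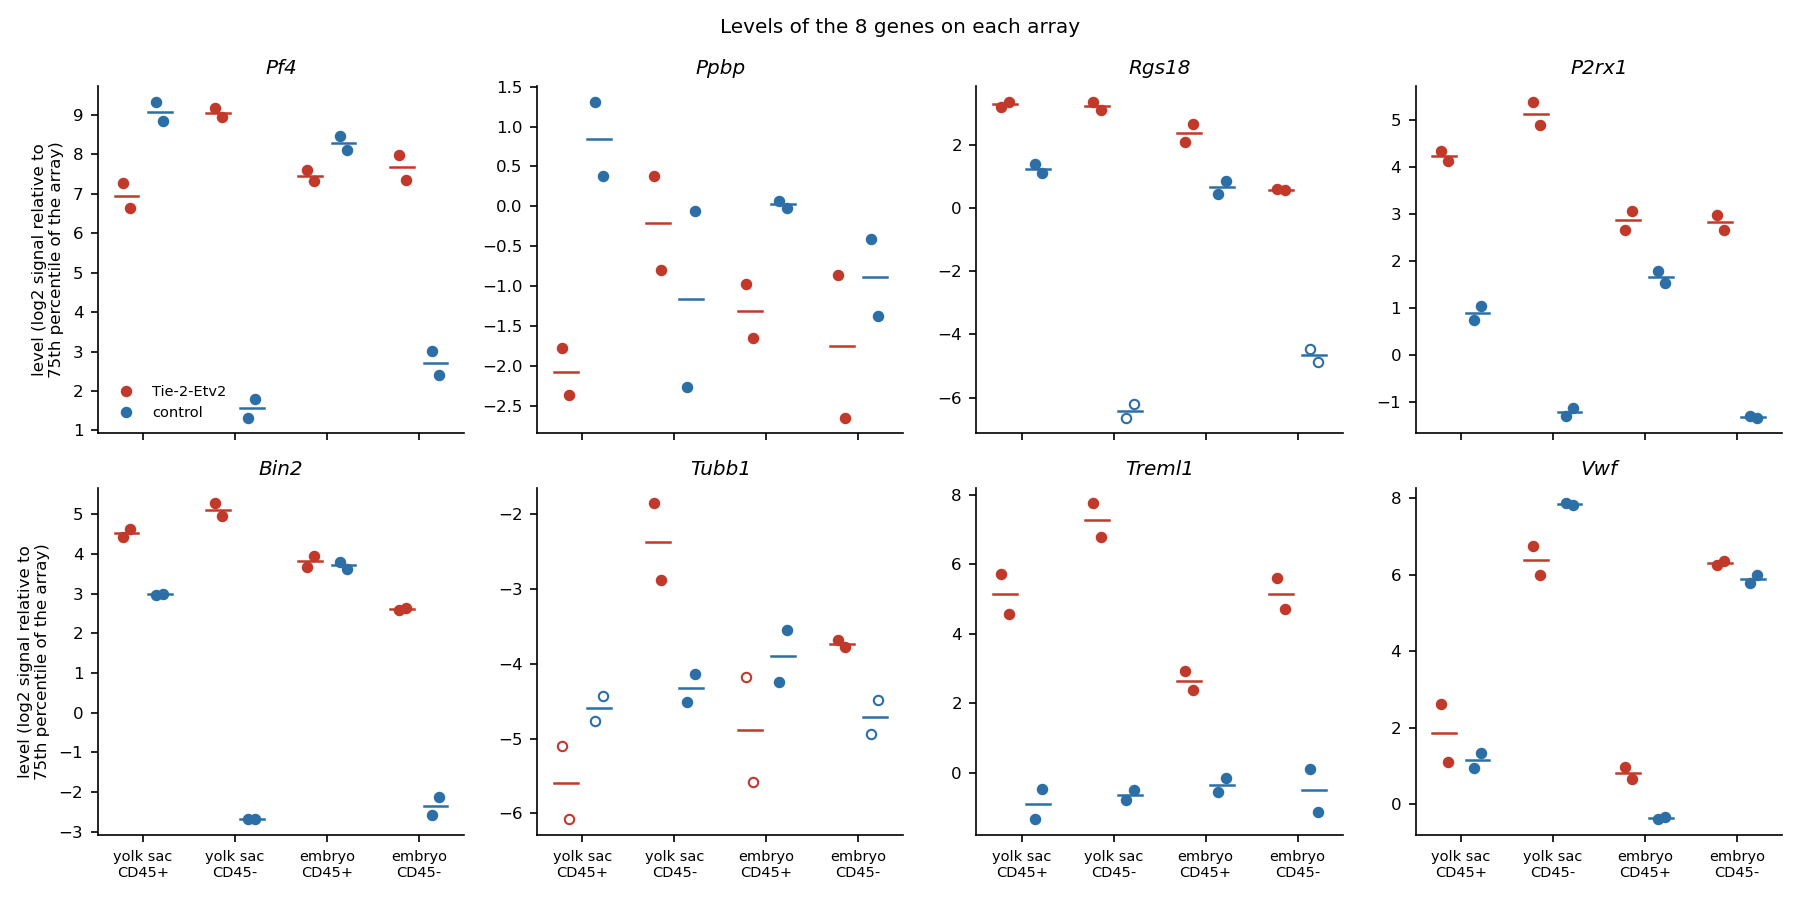
Levels of the 8 genes on each of the 16 arrays (y axes, log2 relative to the array's 75th percentile, scales differ between panels). Points are arrays, horizontal bars means of 2 arrays, red Tie-2-Etv2 and blue control; open points belong to groups in which fewer than both arrays were well above background. Treml1 is high in red groups alone, Pf4 is low in the control CD45- groups alone, and Vwf is high in all CD45- groups.

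Of the signalling genes, P2rx1, the ATP-gated channel, rose with the transgene in every population. Its level was 4.35 and 4.13 in Tie-2-Etv2 yolk sac CD45+ cells, against 0.75 and 1.05 in control cells. The yolk sac CD45- cells had 5.39 and 4.89 with the transgene, against -1.29 and -1.12 without it. Embryo CD45+ cells had 2.65 and 3.07 against 1.80 and 1.54, and embryo CD45- cells 2.99 and 2.66 against -1.29 and -1.33. No population had overlapping arrays. The differences were 3.34 ± 0.23 (adjusted p = 1.03e-05), 6.34 ± 0.23 (adjusted p = 4.96e-08), 1.19 ± 0.23 (adjusted p = 0.0186) and 4.13 ± 0.23 (adjusted p = 4.09e-06) in that order, which is 10.1-fold, 81.2-fold, 2.29-fold and 17.5-fold. The embryo CD45+ call was lost without Tie-2-Etv2 replicate 2 (adjusted p = 0.189, difference 0.98), without control replicate 2 (0.0743, difference 1.07), with the embryo slide alone (0.0728) and on the 4 arrays alone (0.242).

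Rgs18, the regulator of G protein signals, had levels of 3.20 and 3.35 in Tie-2-Etv2 yolk sac CD45+ cells, against 1.40 and 1.10 in control cells. In yolk sac CD45- cells it read 3.36 and 3.11 with the transgene and was not well above background on either control array (-6.63 and -6.19). On the processed signal it was at least 351-fold higher there (limma adjusted p = 9.25e-09), a bound that did not hold under the other background correction given below. Embryo CD45+ cells had 2.10 and 2.65 against 0.45 and 0.86. The embryo CD45- arrays read 0.58 on both Tie-2-Etv2 samples, against -4.45 and -4.87 on control samples, of which 1 was well above background. The groups of each population stood apart without overlap. The difference was 2.03 ± 0.25 in yolk sac CD45+ cells (adjusted p = 0.000219), 1.72 ± 0.25 in embryo CD45+ cells (adjusted p = 0.00507) and 5.24 ± 0.25 in embryo CD45- cells (adjusted p = 1.76e-06). With another background correction (normexp) the yolk sac CD45- difference was 5.31, in place of 9.64, and the embryo CD45- difference was 2.81, in place of 5.24. The embryo CD45+ call was lost without Tie-2-Etv2 replicate 2 (adjusted p = 0.0550, difference 1.44) and on the 4 arrays alone (0.187).

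Bin2 stood at 4.44 and 4.64 in Tie-2-Etv2 yolk sac CD45+ cells, against 2.98 on both control arrays, a rise of 2.95-fold (1.56 ± 0.19, adjusted p = 0.000189). Yolk sac CD45- cells had 5.28 and 4.96 with the transgene, against -2.68 and -2.69 in controls, 223-fold higher (7.80 ± 0.19, adjusted p = 9.25e-09). Its embryo CD45+ arrays overlapped, at 3.69 and 3.96 in Tie-2-Etv2 cells and 3.81 and 3.63 in control cells (0.10 ± 0.19, 95% interval -0.32 to 0.52, adjusted p = 0.896, and -0.033 without Tie-2-Etv2 replicate 2). In embryo CD45- cells it read 2.59 and 2.63 with the transgene, against -2.57 and -2.14 in controls, 31.3-fold higher (4.97 ± 0.19, adjusted p = 7.77e-07).

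General leukocyte transcripts rose along with Rgs18, Bin2 and P2rx1 in the CD45- gate. Of 20 pan-leukocyte genes, 19 rose and 0 fell in yolk sac CD45- cells, where their summed level was 9.27 and 8.84, against 4.83 and 4.74 in control cells. In embryo CD45- cells 16 rose and 0 fell (7.04 and 6.93, against 4.82 and 5.09). In yolk sac CD45+ cells 3 rose and 5 fell (9.82 and 9.71, against 10.23 and 9.92). In embryo CD45+ cells 0 of 20 passed in either direction by limma (10.06 and 10.03, against 10.31 and 9.96). The part of these cells' transcripts in the members' values was not tested. Of all genes, 18.1%, 26.1%, 2.29% and 1.25% rose in yolk sac CD45+, yolk sac CD45-, embryo CD45+ and embryo CD45- cells. In the yolk sac 14.4% of all genes fell in CD45+ and 15.8% in CD45- cells. Granulocyte and mast cell markers rose in 15 of 19 genes in yolk sac CD45+ cells, 6 in yolk sac CD45- cells, near the share of all genes, 7 in embryo CD45+ cells and 1 in embryo CD45- cells, and fell in 1, 2, 0 and 0. Their summed levels were 10.68 and 10.38 against 6.68 and 7.94 in yolk sac CD45+ cells, 7.69 and 7.63 against 6.27 and 6.15 in yolk sac CD45- cells, 10.68 and 11.06 against 7.56 and 8.33 in embryo CD45+ cells, and 6.82 and 7.05 against 6.97 and 6.54 in embryo CD45- cells. Mpo, a granulocyte marker of this list, was at 6.60 and 6.28 in Tie-2-Etv2 yolk sac CD45- cells, against -2.86 and -3.74 in control cells. In embryo CD45- cells it was at 3.08 and 3.45, against -2.02 and -1.45. Of the 19 genes, 17 against 10 were well above background on both arrays in yolk sac CD45- cells, and 16 against 10 in embryo CD45- cells. Erythroid markers rose in 1 gene and fell in 3 of 19 in yolk sac CD45- cells and fell in 2 in yolk sac CD45+ cells, and 0 passed in either embryo gate.

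Tubb1, the platelet tubulin, was near the limit of detection. In yolk sac CD45- cells it read -1.86 and -2.88 with the transgene, against -4.51 and -4.14 in controls, a rise of 3.88-fold (1.96 ± 0.50, adjusted p = 0.0105). The rise was lost without Tie-2-Etv2 replicate 1 (adjusted p = 0.0972, difference 1.45) and without control replicate 1 (0.0656, difference 1.77), and with normexp it was 0.65 (adjusted p = 0.0154). Tie-2-Etv2 yolk sac CD45+ cells had -5.10 and -6.08, with neither array well above background, against -4.76 and -4.43 in control cells (adjusted p = 0.164). Embryo CD45+ cells had -4.18 and -5.59 against -4.24 and -3.54 (adjusted p = 0.383), and embryo CD45- cells -3.69 and -3.78 against -4.94 and -4.48 (adjusted p = 0.813). In 4 of the 8 groups fewer than both arrays were well above background, and its 7 lowest group means did not differ from their neighbours in the order beyond the spread.

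The CD45+ and CD45- gates were compared next, within tissue and genotype. In Tie-2-Etv2 yolk sac cells 5 of 8 members differed between the gates, all lower in CD45+ cells, where 10.4% of all genes differed in either direction. These were Vwf (-4.52 ± 0.41, adjusted p = 6.84e-05), Tubb1 (at least 4.98-fold lower on the processed signal, adjusted p = 0.00196), Treml1 (-2.13 ± 0.55, adjusted p = 0.0323), Pf4 (-2.10 ± 0.32, adjusted p = 0.00180) and P2rx1 (-0.90 ± 0.23, adjusted p = 0.0296). The size for Tubb1 rests on signals near background and depends on the background correction. With normexp its transgene difference in yolk sac CD45- cells was 0.65, in place of 1.96. The calls of Treml1 and P2rx1 were each lost without Tie-2-Etv2 CD45- replicate 1 (adjusted p = 0.215 and 0.214, differences -1.64 and -0.65) and without CD45+ replicate 2 (0.238 and 0.181, differences -1.56 and -0.79), and that of P2rx1 also without CD45+ replicate 1 (0.0856). In control yolk sac cells 5 members also differed, against 38.4% of all genes, and 4 of these were higher in CD45+ cells. Pf4 was higher there by 7.53 ± 0.32 (adjusted p = 5.29e-08), Bin2 by 5.67 ± 0.19 (adjusted p = 1.09e-08) and P2rx1 by 2.11 ± 0.23 (adjusted p = 3.60e-05). Rgs18 was at least 88.6-fold higher in CD45+ cells on the processed signal (adjusted p = 1.08e-08). Vwf was lower by 6.70 ± 0.41 (difference -6.70, adjusted p = 6.24e-07).

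Tie-2-Etv2 embryo cells had 4 members that differed between the gates, against 30.3% of all genes. Rgs18 (1.79 ± 0.25, adjusted p = 0.000368) and Bin2 (1.21 ± 0.19, adjusted p = 0.000703) were higher in CD45+ cells, and Treml1 (-2.51 ± 0.55, adjusted p = 0.00562) and Vwf (-5.49 ± 0.41, adjusted p = 4.58e-06) were lower. The Treml1 call was lost without CD45- replicate 1 (adjusted p = 0.0542, difference -2.06). Tubb1, at -1.15 here (adjusted p = 0.115), passed without CD45+ replicate 1 (adjusted p = 0.0299, difference -1.85). In control embryo cells 5 differed, against 36.6% of all genes: Bin2 (6.07 ± 0.19, adjusted p = 6.72e-09), Pf4 (5.58 ± 0.32, adjusted p = 4.46e-07), Rgs18 (5.32 ± 0.25, adjusted p = 1.22e-07) and P2rx1 (2.98 ± 0.23, adjusted p = 3.13e-06) were higher in CD45+ cells, and Vwf was lower (-6.25 ± 0.41, adjusted p = 1.07e-06). Treml1 was the contrast to these, since its gate difference in control cells was -0.26 ± 0.55 in the yolk sac (adjusted p = 0.744) and 0.14 ± 0.55 in the embryo (adjusted p = 0.879).

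The transgene's effect itself differed between the gates. In the yolk sac the effect in CD45+ cells minus that in CD45- cells passed for 7 of 8 members, against 18.4% of all genes. It was -9.63 ± 0.46 for Pf4 (adjusted p = 9.62e-07), -7.61 ± 0.36 for Rgs18 (adjusted p = 9.62e-07), -6.24 ± 0.27 for Bin2 (adjusted p = 5.68e-07) and -3.00 ± 0.32 for P2rx1 (adjusted p = 0.000165). The size for Rgs18 rests on control CD45- arrays on which it was not well above background. With normexp its effects were 1.93 in CD45+ and 5.31 in CD45- cells, in place of 2.03 and 9.64. Ppbp (-3.87 ± 1.09, adjusted p = 0.0328), Tubb1 (-2.95 ± 0.71, adjusted p = 0.0161) and Vwf (2.18 ± 0.58, adjusted p = 0.0248) also passed. With normexp the Tubb1 effects were -0.28 in CD45+ and 0.65 in CD45- cells, in place of -0.99 and 1.96. Each of the 3 calls of Ppbp, Tubb1 and Vwf rested on single arrays. Without control CD45- replicate 1 all 3 were lost (adjusted p = 0.112, 0.0598 and 0.0708, differences -2.78, -2.77 and 2.17) and 4 members passed. The Ppbp call was also lost without Tie-2-Etv2 CD45- replicate 1 (0.120), Tie-2-Etv2 CD45+ replicate 1 (0.0613) or 2 (0.104) and control CD45+ replicate 1 (0.0976), that of Tubb1 without Tie-2-Etv2 CD45- replicate 1 (0.0658) and Tie-2-Etv2 CD45+ replicate 2 (0.0647), and that of Vwf without Tie-2-Etv2 CD45- replicate 2 (0.0847), control CD45- replicate 2 (0.0698) and control CD45+ replicate 1 (0.0739). In the embryo 4 passed, against 1.14% of all genes, namely Pf4 (-5.79 ± 0.46, adjusted p = 0.000174), Bin2 (-4.87 ± 0.27, adjusted p = 2.59e-05), Rgs18 (-3.53 ± 0.36, adjusted p = 0.000812) and P2rx1 (-2.94 ± 0.32, adjusted p = 0.00118). With normexp the Rgs18 value was -1.19 and did not pass (adjusted p = 0.0986). The effect on Treml1 differed between the gates by -1.87 ± 0.78 in the yolk sac (adjusted p = 0.135) and -2.65 ± 0.78 in the embryo (adjusted p = 0.222), with neither passing.

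Between the tissues, the effect in CD45- cells was larger in the yolk sac than in the embryo for 4 members, against 15.9% of all genes that differed in either direction. The yolk sac effect minus the embryo effect was 4.40 ± 0.36 for Rgs18 (adjusted p = 0.000298), 2.84 ± 0.27 for Bin2 (adjusted p = 0.000436), 2.53 ± 0.46 for Pf4 (adjusted p = 0.00709) and 2.21 ± 0.32 for P2rx1 (adjusted p = 0.00281). Rgs18 was well above background on 0 yolk sac and 1 embryo control array, which limits its size. With normexp its effects were 5.31 in the yolk sac and 2.81 in the embryo, in place of 9.64 and 5.24. For Vwf the yolk sac effect minus the embryo effect was -1.88 ± 0.58 (adjusted p = 0.0516), and it passed under 7 of the alternatives tried, at adjusted p = 0.0228 to 0.0454. Treml1, at 2.24 ± 0.78 (adjusted p = 0.0761), passed with normexp (0.0285) and without control embryo replicate 2 (0.0453, difference 2.86). In CD45+ cells the effect was larger in the yolk sac for P2rx1 (2.15 ± 0.32, adjusted p = 0.0122) and Bin2 (1.46 ± 0.27, adjusted p = 0.0223), 2 members against 3.13% of all genes (770 genes). That of Treml1 was larger in size, at 3.03 ± 0.78, and did not pass (adjusted p = 0.0673), but did with normexp (0.0262), the strict filter on dim probes (0.0417), a trended robust prior (0.0389) and without yolk sac control replicate 2 (0.0445, difference 3.47). The P2rx1 and Bin2 calls were lost without embryo Tie-2-Etv2 replicate 1 (adjusted p = 0.0578 and 0.110, differences 1.94 and 1.32), without yolk sac Tie-2-Etv2 replicate 1 (0.0559 and 0.0728, differences 2.04 and 1.56) and on the 8 arrays alone. The Bin2 call was also lost without yolk sac Tie-2-Etv2 replicate 2 (0.0739, difference 1.36), embryo control replicate 1 (0.0560, difference 1.37) and yolk sac control replicate 1 (0.0620, difference 1.45). The counts over all genes also depended on single arrays. In CD45+ cells 770 genes differed in effect, and 122 or 333 without yolk sac Tie-2-Etv2 replicate 1 or 2, 88 without embryo Tie-2-Etv2 replicate 1, and 297 or 1591 without yolk sac control replicate 1 or 2. In CD45- cells 3917 differed, and 1500 without yolk sac Tie-2-Etv2 replicate 1, 1776 or 1920 without embryo Tie-2-Etv2 replicate 1 or 2, and 1832 or 1681 without yolk sac control replicate 1 or 2.

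Levels were also set side by side across the tissues, which lay on different slides. Tie-2-Etv2 CD45- cells had 5 members higher in the yolk sac than in the embryo, against 30.5% of all genes: Rgs18 by 2.65, Bin2 by 2.51, P2rx1 by 2.31, Treml1 by 2.11 and Pf4 by 1.39. The Treml1 and Pf4 calls were lost without yolk sac replicate 1 (adjusted p = 0.128 and 0.0694, differences 1.62 and 1.28) and without embryo replicate 2 (0.117 and 0.0834, differences 1.66 and 1.08), and Tubb1 (1.36, adjusted p = 0.0649) passed without yolk sac replicate 2 (0.0446, difference 1.87). Tie-2-Etv2 CD45+ cells had 4 higher, against 12.6%: Treml1 by 2.49, P2rx1 by 1.38, Rgs18 by 0.91 and Bin2 by 0.72, all 4 of them lost without embryo replicate 1 (adjusted p = 0.0715, 0.0561, 0.310 and 0.248). Of these calls, 1 was left without yolk sac replicate 1, and 2 without yolk sac replicate 2 or embryo replicate 2, the P2rx1 call among them each time. In control CD45- cells 3 differed, against 11.6%, with Vwf higher in the yolk sac by 1.96 ± 0.41 (adjusted p = 0.0141), Pf4 lower by 1.14 (difference -1.14 ± 0.32, adjusted p = 0.0474) and Rgs18 lower at least 1.48-fold (adjusted p = 0.00244), a value that was -0.0043 with normexp. The Pf4 and Vwf calls were lost without yolk sac control replicate 1 or 2 or embryo control replicate 1. The call left in each case was that of Rgs18, which rests on signals near background. In control CD45+ cells 0 of 8 members passed by limma, against 1.7% of all genes, while 5 members had an unadjusted p under 0.05. The counts over all genes behind these shares moved by more than 1.5 times without some arrays. Tie-2-Etv2 CD45- cells had 7498 genes called, and 3466 without yolk sac replicate 1 and 4000 or 4002 without embryo replicate 1 or 2. Tie-2-Etv2 CD45+ cells had 3087, and 1005 or 1276 without yolk sac replicate 1 or 2 and 665 without embryo replicate 1. Control CD45- cells had 2839, and 1013 or 876 without yolk sac replicate 1 or 2 and 1467 without embryo replicate 1. Control CD45+ cells had 419, and 273 without yolk sac replicate 1, but 876 without replicate 2.

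The genes whose levels followed each member most closely over the 16 arrays were picked among 16524 other named genes by Pearson's r, which is given as a description of 16 arrays that fall into 8 groups. Treml1 was closest to Gp9, a subunit of the platelet receptor for von Willebrand factor (r = 0.995), then Sla2 (0.983) and Tmem40 (0.975). Bin2 was closest to Fermt3, the integrin activator of blood cells (0.993), then Btk, a tyrosine kinase of blood cells (0.990), and Alox5, the 5-lipoxygenase (0.982). For Rgs18 the nearest were Alox5 (0.989), Btk (0.983) and Rasal3 (0.982). P2rx1 followed Unc13d, a priming factor of granule release (0.989), Ptger3, a prostaglandin E receptor (0.986), and the calcium pump Atp2a3 (0.974). Pf4 followed Plxnb3 (0.980), Plek, the platelet and leukocyte protein pleckstrin (0.969), and Fyb, an adaptor of platelets and T cells (0.966). Vwf had Prx (0.982), Cavin3 (0.981) and Ecm1 (0.979), while the closest to Ppbp and Tubb1 were Marchf8 (0.885) and Creld1 (0.869). Among the members themselves r was highest between Rgs18 and Bin2 (0.982). Pf4 and Treml1 had 0.456, and Pf4 and Ppbp 0.345. Vwf had negative values with Pf4 (-0.562), Rgs18 (-0.560) and Bin2 (-0.568).

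The other genes of the same functions were counted from 5 lists, to be read beside the shares over all 24578 genes. These lists share genes with the marker lists above, so the 2 sets of counts are not independent. Of the genes named below, Plek, Fermt3, Coro1a and Was are also on the pan-leukocyte list and F13a1 on the macrophage list. Gata2 is also on the granulocyte and mast cell list, and Esam on the endothelial list. Of all genes, 18.1% rose and 14.4% fell in yolk sac CD45+ cells, and 26.1% and 15.8% in yolk sac CD45- cells. In embryo CD45+ cells 2.29% rose and 175 genes fell, and in embryo CD45- cells 1.25% rose and 8 genes fell. Of 33 further granule cargo and granule biogenesis genes, 15 rose and 6 fell in yolk sac CD45+ cells, 20 rose and 4 fell in yolk sac CD45- cells, 9 rose and 0 fell in embryo CD45+ cells, and 9 rose and 0 fell in embryo CD45- cells. Slc35d3, a transporter of platelet dense granules, rose by 7.09 ± 0.77, 8.74 ± 0.77, 4.01 ± 0.77 and 5.55 ± 0.77 in these populations in that order. Plek rose in the CD45- cells by 8.46 ± 0.27 (yolk sac) and 5.37 ± 0.27 (embryo), and its CD45+ differences of -0.22 and -0.62 did not pass. F13a1 rose by 8.34 ± 0.29 and 4.86 ± 0.29 in the same CD45- populations. Stx11 (2.32 ± 1.29, adjusted p = 0.177) and Thbs1, the granule protein thrombospondin 1 (1.27 ± 0.48, adjusted p = 0.0548), did not pass in yolk sac CD45- cells. Thbs1 rose in CD45+ cells, by 2.20 ± 0.48 in the yolk sac and 2.44 ± 0.48 in the embryo.

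Of 47 further activation signalling genes, 22 rose and 9 fell in yolk sac CD45+ cells, 36 rose and 2 fell in yolk sac CD45- cells, 7 rose and 2 fell in embryo CD45+ cells, and 13 rose and 0 fell in embryo CD45- cells. Fyb was at least 307-fold and at least 61.1-fold higher in yolk sac and embryo CD45- cells and fell by 1.80 (SE 0.44, adjusted p = 0.0100) in yolk sac CD45+ cells. Btk rose by 8.63 ± 0.21 and Fermt3 by 7.36 ± 0.18 in yolk sac CD45- cells. F2rl2, a thrombin receptor of mouse platelets, was at least 13.2-fold, 91.1-fold and 22.1-fold higher in yolk sac CD45+, yolk sac CD45- and embryo CD45- cells. Gna13 (0.90 ± 0.51, adjusted p = 0.184) and F2r (0.89 ± 0.37, adjusted p = 0.0740) did not pass in yolk sac CD45- cells. F2r rose by 4.78 ± 0.37 in yolk sac CD45+ cells, and its difference of 1.35 ± 0.37 in embryo CD45+ cells did not pass.

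Adhesion receptors, 22 besides the members, had 13 higher and 4 lower in yolk sac CD45+ cells, 12 and 5 in yolk sac CD45- cells, 9 and 1 in embryo CD45+ cells, and 7 and 0 in embryo CD45- cells. Gp9 rose in all 4 populations, by 5.88 ± 0.50, 7.87 ± 0.50, 3.46 ± 0.50 and 5.62 ± 0.50. Ly6g6f was at least 88.0-fold higher in yolk sac and 14.7-fold higher in embryo CD45- cells. Cd226, an adhesion molecule, was at least 20.2-fold higher in yolk sac CD45- cells. Cd9 (-0.72 ± 0.38, adjusted p = 0.152) and Esam (-0.61 ± 0.35, adjusted p = 0.186), which endothelium also expresses, did not pass there. In yolk sac CD45+ cells Esam rose by 4.18 ± 0.35.

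The cytoskeleton list moved in both directions, with 8 of 20 genes higher and 8 lower in yolk sac CD45+ cells, 8 and 5 in yolk sac CD45- cells, 3 and 1 in embryo CD45+ cells, and 3 and 0 in embryo CD45- cells. Tuba8, an alpha tubulin of platelets, rose by 8.21 ± 0.53, 9.34 ± 0.53, 6.52 ± 0.53 and 7.31 ± 0.53 in the 4 populations, unlike the dim Tubb1. Coro1a (6.89 ± 0.24), Was (5.79 ± 0.22) and the formin Diaph1 (2.24 ± 0.27) rose in yolk sac CD45- cells, and Wdr1 (0.39 ± 0.18, adjusted p = 0.115) and Myh9 (0.27 ± 0.15, adjusted p = 0.177) did not pass there. Of 19 transcription factors of megakaryocytes, 10 rose and 1 fell in yolk sac CD45+ cells, 10 rose and 0 fell in yolk sac CD45- cells, 5 rose and 0 fell in embryo CD45+ cells, and 3 rose and 0 fell in embryo CD45- cells. Gfi1b rose by 4.86, 6.08, 2.24 and 3.94 (SE 0.40), Gata1 by 4.68, 5.50, 2.12 and 4.10 (SE 0.45) and Nfe2 by 4.05, 4.196, 3.10 and 3.64 (SE 0.44) in the 4 populations. Runx1 rose by 4.62 ± 0.67 in yolk sac CD45- cells, and its difference of 1.78 ± 0.67 in embryo CD45- cells did not pass (adjusted p = 0.544); whether these differ was not tested. Gata2 (1.25 ± 0.48, adjusted p = 0.0586) and Lyl1 (1.10 ± 0.41, adjusted p = 0.0523) did not pass in yolk sac CD45- cells, and Gata2 rose by 5.83 ± 0.48 in yolk sac CD45+ cells.

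**Figure D4:**
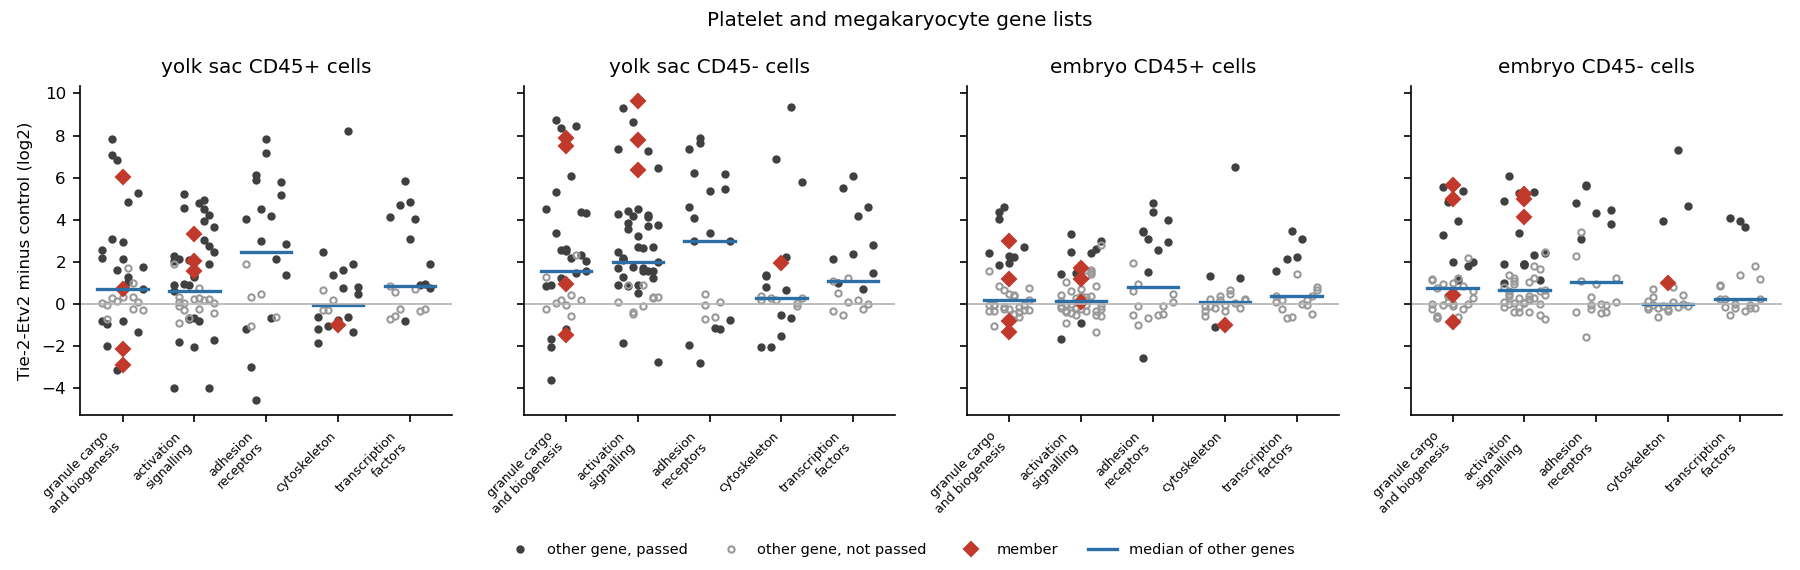
Tie-2-Etv2 minus control differences (log2, y axis) of the genes of 5 platelet and megakaryocyte lists (x axis) in the 4 populations. Filled and open grey points are other genes of a list that did and did not pass an adjusted p of 0.05, red diamonds are the members, and blue bars are medians of the other genes. The median of the adhesion receptors is 2.48 in yolk sac CD45+ cells and 2.99 in yolk sac CD45- cells, while that of the cytoskeleton genes is between -0.046 and 0.27 in the 4 populations.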

How the data were processed

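VE-cadherin-positive cells of 8 groups were measured on 16 Agilent 1-colour arrays, scanned and extracted with Feature Extraction 10.7 on probes annotated to mm9, per the labels' protocols and the file headers. The deposited scanner files give the processed signal intensity of each spot, after the scanner software's background treatment, per the file headers. The authors' value table holds log2 values; set against the scanner values (lowest correlation of array differences 1 to the precision kept) it was found to run in the same direction, with a constant added to each array and each probe's median over the 4 arrays of a population set to 0. Why the arrays were shifted as they were is unknown. Its column medians for replicates 1 and 2 were -0.0089 and -0.12 in Tie-2-Etv2 and 0.15 and 0.0033 in control yolk sac CD45+ cells, and 0.016 and -0.0045 against 0.085 and -0.18 in yolk sac CD45- cells. They were 0.0054 and -0.032 against 0.17 and -0.084 in embryo CD45+ cells, and 0.028 and -0.032 against 0.17 and -0.093 in embryo CD45- cells.

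Here log2 processed intensities were set relative to the array's 75th percentile, spots of a probe were averaged, control and outlier spots were left out, and a probe was kept where both arrays of some group had it well above background (34126 of 55594). Of a gene's kept probes the brightest was used, for 24578 genes, 16532 of them with a symbol, named through RefSeq accessions and symbols. Group means were fitted over 16 arrays with limma 3.58.1 in R 4.3.3 (8 residual degrees of freedom), with Benjamini-Hochberg adjustment, a threshold of 0.05 and contrasts for genotype, gate, tissue and the difference of genotype effects. The fit was tested on simulated data. Where a group was not well above background, a bound on the processed signal is given in place of a fold, and it need not hold under another background correction. Named list genes were up to 4 per list with the largest absolute difference among those called in yolk sac CD45- cells and up to 2 with the largest among those not called there; genes of like pattern were the 3 with the highest Pearson's r per member. The members and gene lists were chosen with earlier results of these data known. Same-numbered replicates deviated together in part: 8 of 28 pairs of groups had a correlation of replicate differences above 0.1 (range -0.047 to 0.39). The main fit did not pair samples by number, so any such shared deviation stays in its spread. With a replicate block the transgene count in yolk sac CD45- cells was 11467 genes, instead of 10287. In embryo CD45+ cells it was 1031, instead of 739. Alternatives were other scalings, background correction, filters, probe rules, priors, subsets of arrays, a replicate block, the value table, and leaving out each array. The exon or UTR position of the probes was not given. A list gene that the choice of genes to name would include is not reported here.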

Additional observations from a re-analysis of the deposited data

Results flagged for a closer look

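In 17 cases the Tie-2-Etv2 effect on a member differed between gates or tissues by a test of the difference itself (limma interaction contrast, adjusted over 24578 genes). In the yolk sac the effect in CD45+ cells minus that in CD45- cells was -9.63 for Pf4, -3.87 for Ppbp, -7.61 for Rgs18, -3.00 for P2rx1, -6.24 for Bin2, -2.95 for Tubb1 and 2.18 for Vwf. In the embryo it was -5.79 for Pf4, -3.53 for Rgs18, -2.94 for P2rx1 and -4.87 for Bin2. The effect in yolk sac cells minus that in embryo cells was 2.53 for Pf4, 4.40 for Rgs18, 2.21 for P2rx1 and 2.84 for Bin2 among CD45- cells. Among CD45+ cells it was 2.15 for P2rx1 and 1.46 for Bin2. The sizes for Rgs18 that involve control CD45- cells, and those for Tubb1, rest on signals near background. Gate was tied to the slide column and tissue to the slide, so differences of effect between gates or tissues cannot be told apart from a difference of effect between columns or slides. With 2 arrays a group, single outlying arrays were not looked for.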

How the results depend on the processing

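Each of 128 differences (8 members in 16 comparisons) was recomputed under those of 28 alternatives that bear on it, 12 of which did not leave out an array, for 2032 values: 1885 kept their direction and side of the threshold, 91 lost a call, 23 gained one and 33 turned sign. All 33 concerned differences that did not pass as reported, and none of them passed after turning. The count of members called moved by over 1.5 times in these cases. Between the gates of Tie-2-Etv2 yolk sac cells it was 3 with the compared arrays alone, with no filter on dim probes and with the slide alone, instead of 5 (3 to 5 when an array was left out). Between tissues in Tie-2-Etv2 CD45+ cells it was 1 with the arrays alone and 2 with detected-probe scaling, no filter or quantile normalization, instead of 4 (0 to 3 when an array was left out). The range on leaving out an array was 3 to 6 between tissues in Tie-2-Etv2 CD45- cells and 1 to 3 in control CD45- cells. For members higher in embryo CD45+ cells it was 0 with the arrays alone, where limma called 0 of 24578 genes, and 0 to 2 on leaving out an array. For the effect between gates in the yolk sac it was 4 to 7 on leaving out an array, and for the effect between tissues in CD45+ cells 0 with the arrays alone and 0 to 3. The cause was not tested.

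Signs turned as follows. With detected-probe scaling the gate difference of P2rx1 in Tie-2-Etv2 embryo cells was -0.15, that of Treml1 in control embryo cells -0.058, and the tissue difference of Vwf in Tie-2-Etv2 CD45- cells -0.18. Quantile normalization gave -0.18 for this P2rx1 value, -0.22 for this Vwf value and 0.0074 for the effect on Tubb1 between tissues in CD45+ cells. Normexp gave -0.011 for the gate difference of Rgs18 in Tie-2-Etv2 and 0.092 for that of Tubb1 in control yolk sac cells. Leaving out an array gave ranges across 0 for the transgene difference of Bin2 in embryo CD45+ cells (-0.033 to 0.24), Ppbp in embryo CD45- (-1.76 to 0.029) and yolk sac CD45- cells (-0.14 to 2.05), and Vwf in yolk sac CD45+ cells (-0.039 to 1.46). The same held for the gate differences in Tie-2-Etv2 embryo cells of P2rx1 (-0.17 to 0.25), Pf4 (-0.52 to 0.099) and Ppbp (-0.45 to 1.34), in Tie-2-Etv2 yolk sac cells of Rgs18 (-0.080 to 0.17), and of Treml1 in control embryo (-0.47 to 0.76) and yolk sac cells (-0.70 to 0.18). It also held for the tissue differences of Ppbp (-1.37 to 0.82) and Treml1 (-0.75 to 0.48) in control CD45- cells and Vwf in Tie-2-Etv2 CD45- cells (-0.31 to 0.46). The effects that crossed 0 were those on Ppbp between embryo gates (-1.36 to 0.43) and on Tubb1 (-0.71 to 0.70) and Vwf (-1.21 to 0.29) between tissues in CD45+ cells.

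The replicate block changed the count of members in 1 comparison, the effect between tissues in CD45- cells, with 5 instead of 4 (Vwf, adjusted p = 0.0454). The count of genes called also moved by over 1.5 times under these alternatives other than leaving out an array. For the transgene in yolk sac CD45+ cells it was 8000, and 4505 with the arrays alone; in embryo CD45+ cells 739, 407 with the slide alone, 1124 with normexp (658 higher and 466 lower, instead of 564 and 175) and 0 with the arrays alone; in embryo CD45- cells 316, 175 with the strict filter and 134 with the arrays alone. Between gates it was 2553 in Tie-2-Etv2 yolk sac cells and 1599 with the strict filter, and 8989 in control embryo cells and 5265 with the arrays alone. Between tissues it was 3087 in Tie-2-Etv2 CD45+ cells, 2008 with no filter and 2006 with the arrays alone, and 419 in control CD45+ cells, 126 with normexp, 222 with no filter, 129 with the strict filter and 0 with the arrays alone. For the effect between tissues it was 3917 in CD45- cells and 2526 with no filter, and 770 in CD45+ cells, 321 with no filter and 0 with the arrays alone. For the effect between embryo gates it was 281, 168 with the strict filter and 166 with the arrays or slide alone. Without Tie-2-Etv2 replicate 1 the transgene count was 5265 in yolk sac CD45+ cells and 6590, instead of 10287, in yolk sac CD45- cells, and without replicate 2 it was 285 in embryo CD45+ cells. The Tie-2-Etv2 yolk sac gate count was 1559 without CD45+ replicate 1, and the embryo gate effect count 177 without Tie-2-Etv2 CD45- replicate 2. Such counts between tissues are given with those results. Scaling on detected probes moved the split of genes called in each of these, besides the yolk sac transgene comparisons given with the results. Between gates it was 3204 higher and 4241 lower, instead of 4028 and 3411, in Tie-2-Etv2 embryo cells, 4050 and 5129, instead of 4904 and 4085, in control embryo cells, and 3952 and 5057, instead of 5555 and 3878, in control yolk sac cells. Between tissues it was 2551 and 4328, instead of 4425 and 3073, in Tie-2-Etv2 CD45- cells, 950 and 2308, instead of 1295 and 1792, in Tie-2-Etv2 CD45+ cells, and 1601 and 1206, instead of 1342 and 1497, in control CD45- cells. For effects it was 1032 and 2221, instead of 2344 and 1573, between tissues in CD45- cells (under quantile normalization 1623 and 1748), 207 and 633, instead of 270 and 500, between tissues in CD45+ cells, and 2497 and 2001, instead of 1938 and 2579, between yolk sac gates. The strict filter tested 6 of the 8 members. Signals near background limit Tubb1 and the Rgs18 values of control CD45- cells.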
